A study of Mus musculus with 24 samples.

Results

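CD4 T cells that carried 1 floxed Pou2af1 allele together with a CD4.Cre transgene were compared with CD4 T cells of Cre-negative controls. The comparison took 8 of the 24 libraries of the study, 4 labelled heterozygote and 4 labelled control, which were chosen by the cell type and genotype in their labels, and every gene of the deposited count table entered it. The study measured poly(A) RNA in 2 T cell types, CD4 and CD8, and in 3 genotypes, with 4 libraries in each of the 6 groups. Cells were sorted from the spleens of 12-week-old C57BL/6 mice and then kept in culture for 2 days with antibodies against CD3 and CD28, which stimulate the T cell receptor and its costimulator. The genotype label of the controls reads CD4.Cre-.Pou2af1fl/fl, although their titles call them +/+, so both of their alleles were floxed but no Cre was there to delete them. Heterozygotes were CD4.Cre+.Pou2af1fl/+ and the knockouts, which enter below for single genes, were CD4.Cre+.Pou2af1fl/fl. CD4-Cre is active in the thymus before the CD4 and CD8 lineages part, so the allele is deleted in T cells of both kinds. Cre was in every heterozygote and in no control, and the presence of Cre and the loss of an allele therefore cannot be told apart. Heterozygotes also kept 1 unfloxed allele, while controls and knockouts had both alleles floxed. This difference from controls cannot be told apart from Cre or from the loss of an allele either. The labels do not say whether libraries of different number came from separate animals. The p-values therefore rest on the spread between libraries, which may in part be technical.

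POU2AF1, also called OCA-B or Bob1, is a coactivator without a DNA-binding domain of its own. It joins the octamer factors POU2F1 and POU2F2 on the DNA motif ATGCAAAT, and it is best known from B cells, where it is needed for germinal centres. In CD4 T cells, where it is present at a lower level, it has been studied for cytokine genes such as Il2 and Ifng and for memory and follicular helper cells.

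Total gene counts ran from 13.9 to 21.8 megacounts in the 4 controls and from 11.9 to 16.6 megacounts in the 4 heterozygotes, and a count of 3, taken as the floor of detection, was 0.136 to 0.249 CPM. CPM here are counts scaled by the library's total in tested genes, after TMM. T cell markers summed to 2655 ± 122 CPM in controls and 2590 ± 106 CPM in heterozygotes (SD, n = 4 each), Cd4 stood at 479 and 476 CPM, and of the CD8 coreceptor genes Cd8a at 0.217 and 0.373 CPM and Cd8b1 at 8.82 and 10.7 CPM, in controls and heterozygotes. Transcripts of 4 Y-linked genes summed to 401 to 589 CPM in control libraries 1, 2 and 4 and in heterozygous libraries 3 and 4. In control library 3 and in heterozygous libraries 1 and 2 they summed to at most 1.08 CPM, with Xist high, so same-numbered libraries differed in sex in 3 of 4 pairs, in both directions. Reads outside annotated genes made up 9.56 ± 0.576% in controls and 8.77 ± 0.546% in heterozygotes (SD, n = 4 each; lower in 4 of 4 same-numbered pairs; 2-sided exact permutation p = 0.0571, Benjamini-Hochberg adjusted p = 0.243 over 17 measures).

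Pou2af1 itself (ENSMUSG00000032053.8, GRCm38 chromosome 9, 51213708 to 51240080, plus strand) stood at 29.7, 28.7, 46.7 and 49.5 CPM in control libraries 1 to 4. In heterozygous libraries 1 to 4 it stood at 15.7, 17.6, 24.6 and 22.8 CPM. The groups did not overlap, and in both genotypes libraries 3 and 4 lay above libraries 1 and 2. Heterozygotes held 52.2% of the control mean (20.2 ± 4.21 against 38.6 ± 11 CPM; SD, n = 4 each), and by same-numbered pair they held 0.528, 0.614, 0.526 and 0.461 of the control level. In the fit over the 12 CD4 libraries without regard to library number the change was -0.94 on the log2 scale (SE 0.26, edgeR quasi-likelihood unadjusted p = 0.00337) and it did not pass over all genes (Benjamini-Hochberg adjusted p = 0.344). With the library number as a block it was -0.92 (SE 0.11) and passed (edgeR quasi-likelihood adjusted p = 0.00162), though not with the libraries of number 4 left out (-0.85, adjusted p = 0.0673). Over 33 alternatives the adjusted p of edgeR, DESeq2 or limma ran from 0.000464 to 0.754, with the change between -0.80 and -1.06. Knockouts stood at 1.31 to 3.79 CPM. In RNA from a whole culture, fewer cells with a transcript and less of it per cell cannot be told apart.

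**Figure D1:**
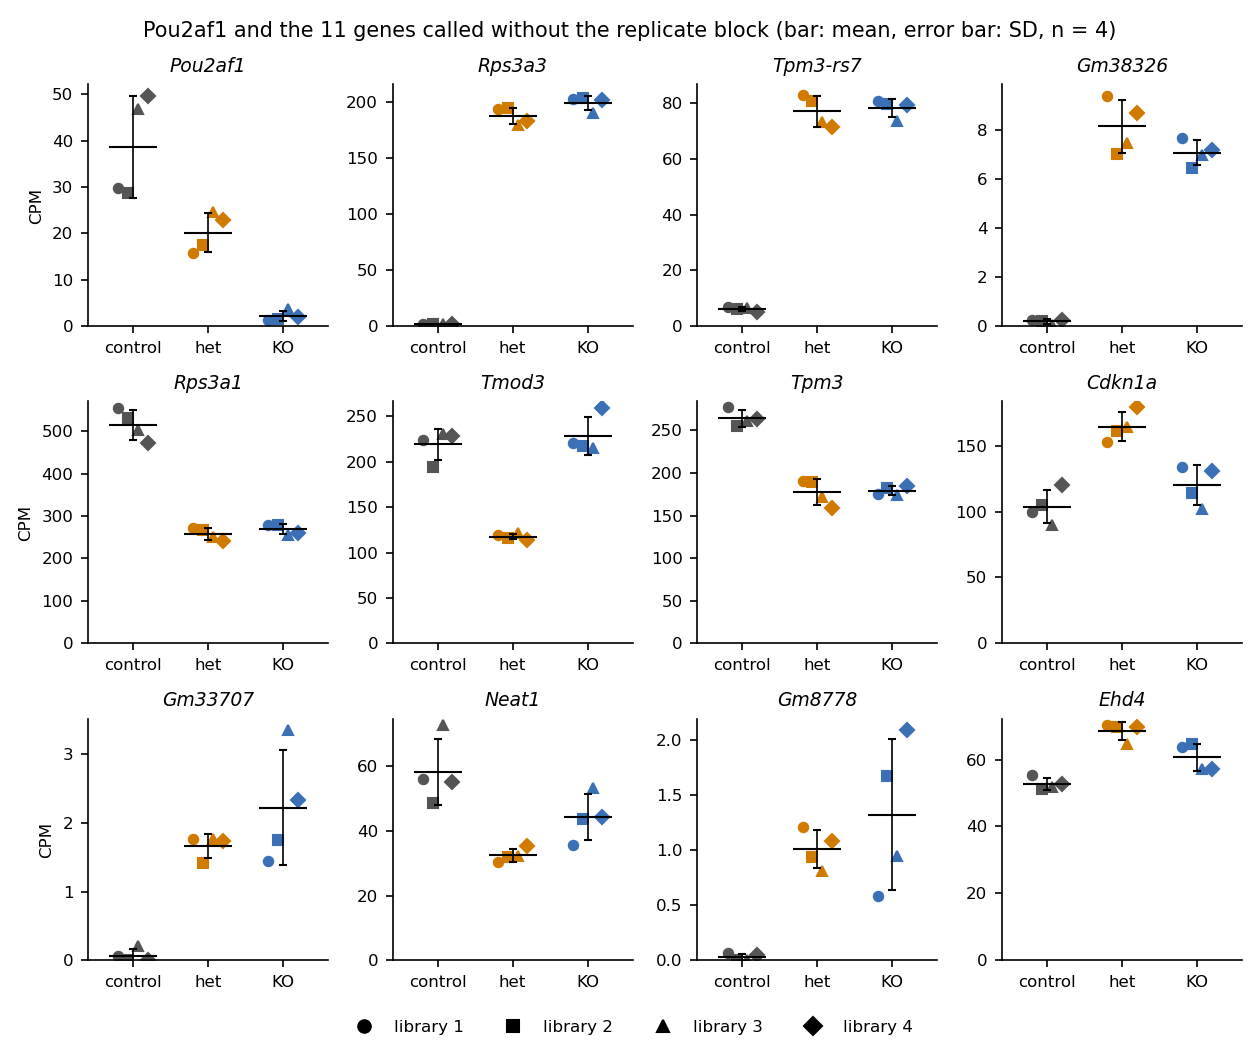
CPM of Pou2af1 and of the 11 genes called without the block, in control, heterozygous (het) and knockout (KO) CD4 libraries; each point is a library, its shape gives the library number, horizontal bars are means and error bars SD (n = 4). Heterozygotes lie apart from controls in all 12 panels, and Tmod3 is low in heterozygotes (114 to 121 CPM) but not in knockouts (215 to 259 CPM).

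Without the block, 11 of 12719 genes (0.0865%) passed edgeR's quasi-likelihood test at a Benjamini-Hochberg adjusted p under 0.05, of which 7 (0.055%) were higher and 4 (0.0314%) lower in heterozygotes. Those 11 were Rps3a3, Tpm3-rs7, Gm38326, Gm33707, Gm8778, Cdkn1a and Ehd4, which rose, and Rps3a1, Tmod3, Tpm3 and Neat1, which fell. At an unadjusted p under 0.05 the same test had 1093 genes (8.59%). The plot of the 11 genes by library shows that none had overlapping groups, where 6.20% of all tested genes do not overlap between the same 8 libraries. The test that picked the 11 used these libraries and favours genes whose groups lie apart, so this is not separate evidence.

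The pairs Rps3a3 with Rps3a1 and Tpm3-rs7 with Tpm3 are near-identical copies whose counts moved in opposite directions, so a stretch of each is shown with the bases that tell the copies apart. Rps3a1 (ENSMUSG00000028081.6, chromosome 3, 86137940 to 86142702, minus strand, 6 exons) encodes a small ribosomal subunit protein. Rps3a3 (ENSMUSG00000059751.7, chromosome 13, 108670603 to 108671397, plus strand) is annotated as a processed pseudogene of 1 exon within the span of Pde4d, on the same strand and sharing no exon with it. Tpm3 (ENSMUSG00000027940.18, chromosome 3, 90072649 to 90100902, plus strand) encodes a tropomyosin, a protein that winds along actin filaments. Tpm3-rs7 (ENSMUSG00000058126.7, chromosome 14, 113314608 to 113316754, plus strand) is a gene of 1 exon annotated as coding. All positions are on GRCm38. Transcripts of GENCODE vM21 were 98.9% identical over 795 aligned positions for Rps3a3 and Rps3a1 and 99.1% over 2108 for Tpm3-rs7 and Tpm3. The 100-base coding stretches with the most differences follow, 5′ to 3′ along the transcript, with the bases that differ within a pair in capitals.
Rps3a1: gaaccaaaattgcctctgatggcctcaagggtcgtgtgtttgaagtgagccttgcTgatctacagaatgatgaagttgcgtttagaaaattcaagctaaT
Rps3a3: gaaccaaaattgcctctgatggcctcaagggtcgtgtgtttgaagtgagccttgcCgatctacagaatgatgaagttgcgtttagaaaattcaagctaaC
Tpm3: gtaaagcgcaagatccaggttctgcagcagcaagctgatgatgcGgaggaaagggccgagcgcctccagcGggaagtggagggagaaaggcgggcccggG
Tpm3-rs7: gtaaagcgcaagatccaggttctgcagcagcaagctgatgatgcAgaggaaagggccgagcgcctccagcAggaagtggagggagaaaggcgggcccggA

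Within these stretches the ribosomal pair differs at 2 bases and the tropomyosin pair at 3. Reads that matched several places went to no gene in the authors' counting, so each copy keeps the reads that were placed at it alone, and the split of reads between copies is uncertain. Rps3a3 stood at 2.51, 2.20, 2.22 and 2.09 CPM in control libraries 1 to 4 and at 193, 194, 179 and 183 CPM in heterozygous libraries 1 to 4. Every heterozygous library lay at least 77.2 times above its same-numbered control (log2 change 6.38 with an SE of 0.07, edgeR quasi-likelihood adjusted p = 6.30e-15). Rps3a1 stood at 554, 531, 502 and 472 CPM in controls and at 272, 267, 250 and 241 CPM in heterozygotes. It held 0.490 to 0.511 of the control level within each pair (log2 change -1.0 with an SE of 0.06, edgeR quasi-likelihood adjusted p = 3.23e-06). The counts of Rps3a1, Rps3a2 and Rps3a3 together came to 521 ± 35.7 CPM in controls and 446 ± 21.3 CPM in heterozygotes (SD, n = 4 each), 85.6% of the control mean. Rps3a2, a pseudogene on chromosome 14 that is 99.5% identical to Rps3a1 over 792 positions, fell from 3.57 ± 0.291 to 1.6 ± 0.457 CPM in the fit with the block (edgeR quasi-likelihood adjusted p = 0.0333).

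Tpm3-rs7 stood at 6.98, 6.16, 6.53 and 5.31 CPM in control libraries 1 to 4 and at 82.6, 80.6, 72.9 and 71.4 CPM in heterozygous libraries 1 to 4. The groups were far apart, with pair ratios of 11.2 to 13.5 (log2 change 3.63 with an SE of 0.09, edgeR quasi-likelihood adjusted p = 7.97e-11). Tpm3 stood at 278, 255, 261 and 263 CPM in controls and 191, 190, 172 and 159 CPM in heterozygotes. It fell to 67.4% of the control mean (log2 change -0.57 with an SE of 0.06, edgeR quasi-likelihood adjusted p = 0.00128). Together the pair came to 270 ± 10.2 CPM in controls and 255 ± 20.8 CPM in heterozygotes (SD, n = 4 each), 94.4% of the control mean. The knockouts, which share the controls with this comparison, stood at 199 ± 6.06 CPM for Rps3a3, 268 ± 11.6 for Rps3a1, 78.2 ± 3.18 for Tpm3-rs7 and 179 ± 5.69 for Tpm3 (SD, n = 4 each). None of these 4 genes was called between knockouts and heterozygotes (log2 differences of 0.09, 0.06, 0.02 and 0.01).

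Gm38326, Gm33707 and Gm8778 were close to absent from controls and had few counts in heterozygotes. Gm38326 (ENSMUSG00000103587.1, chromosome 3, 60788361 to 60794730, plus strand), a long noncoding RNA of 3 exons, had 4, 3, 1 and 6 counts in control libraries 1 to 4 and 155, 105, 102 and 105 counts in heterozygous libraries 1 to 4. Scaled to depth this was a ratio of 37.9, with an exact 95% interval of 22.4 to 69.9 that covers counting error only (edgeR quasi-likelihood adjusted p = 9.89e-08). Gm33707 (chromosome 3, 60769887 to 60770455, minus strand), a processed pseudogene upstream of it, had 1, 0, 3 and 0 counts in controls and 29, 21, 24 and 21 in heterozygotes. Its ratio was 27.0, with an interval of 10.2 to 101 (edgeR quasi-likelihood adjusted p = 0.00660). Its transcript is 89.2% identical to one of Eno1, the glycolytic enolase, over 576 aligned positions, and Eno1 stood at 309 ± 86.4 and 276 ± 13.4 CPM (SD, n = 4 each; not called). Gm8778 (chromosome 6, 128976866 to 128977972, minus strand), a processed pseudogene within the span of Clec2g on the opposite strand, had 1, 0, 0 and 1 counts in controls and 20, 14, 11 and 13 in heterozygotes. Its ratio was 33.0, with an interval of 8.73 to 279 (edgeR quasi-likelihood adjusted p = 0.0121). Its transcript is 92.0% identical to one of Isg20l2 over 1123 positions, and Isg20l2, a nuclease of ribosome assembly, stood at 157 ± 7.33 and 158 ± 7.79 CPM (SD, n = 4 each; not called).

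Tmod3 (ENSMUSG00000058587.9, chromosome 9, 75497707 to 75559657, minus strand) encodes a tropomodulin, which caps the pointed ends of actin filaments on tropomyosin. It stood at 224, 194, 230 and 228 CPM in control libraries 1 to 4 and at 119, 116, 121 and 114 CPM in heterozygous libraries 1 to 4. Heterozygotes held 53.7% of the control mean (log2 change -0.90 with an SE of 0.07, edgeR quasi-likelihood adjusted p = 4.73e-05). Knockouts stood at 228 ± 20.7 CPM (SD, n = 4), and the difference between knockouts and heterozygotes was itself called (log2 0.95, edgeR quasi-likelihood adjusted p = 0.000118). Controls and knockouts were both fl/fl, and only heterozygotes were fl/+. The part of the unfloxed allele in the Tmod3 values was not tested. Tmod3 lies on the chromosome of Pou2af1, more than 1 Mb away, and of 9 other tested genes within 1 Mb of Tmod3, 0 were called with or without the block. Of 13 tested genes of tropomyosin, tropomodulin and actin capping, Tmod3 and Tpm3 fell and none rose, with a list median of 0.01 beside -0.019 for all tested genes (log2). Of all tested genes, 0.0314% fell without the block and 0.228% with it. The other tropomyosins and tropomodulins tested were Tpm1 (53.5 and 55.5 CPM), Tpm4 (578 and 615 CPM) and Tmod1 (4.71 and 4.78 CPM in controls and heterozygotes), and none of them was called.

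Cdkn1a, Neat1 and Ehd4 made up the rest of the 11. Cdkn1a encodes p21, the inhibitor of cyclin-dependent kinases that p53 induces, and it stood at 99.8, 105, 89.9 and 120 CPM in control libraries 1 to 4. In heterozygous libraries 1 to 4 it stood at 153, 161, 164 and 179 CPM. The lowest heterozygous library lay above the highest control (log2 change 0.66 with an SE of 0.10, edgeR quasi-likelihood adjusted p = 0.0303), and the log2 change was 0.62 in libraries 1 and 2 and 0.71 in libraries 3 and 4. Neat1, the long noncoding RNA on which nuclear paraspeckles assemble, stood at 56.1, 48.6, 72.6 and 55.1 CPM in controls and 30.4, 31.9, 32.2 and 35.3 CPM in heterozygotes. Heterozygotes held 55.9% of the control mean, with the control of library 3 highest (log2 change -0.84 with an SE of 0.13, edgeR quasi-likelihood adjusted p = 0.0374). Ehd4, an ATPase of endocytic recycling, stood at 55.4, 51.3, 51.8 and 52.6 CPM in controls and 70.4, 69.6, 64.5 and 69.6 CPM in heterozygotes. The change was small and even over pairs, with ratios of 1.24 to 1.36 (log2 change 0.38 with an SE of 0.06, edgeR quasi-likelihood adjusted p = 0.0412). Cdkn1a passed in 25, Neat1 in 21 and Ehd4 in 15 of 33 alternatives, while Rps3a3, Tpm3-rs7, Gm38326, Rps3a1, Tmod3 and Tpm3 passed in all 33, Gm33707 in 32 and Gm8778 in 29. With 1 library left out at a time the count of calls was 7 without control library 3 and 7 without heterozygous library 1.

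With the library number as a block, 58 genes (0.456%) passed the same test, 29 higher and 29 lower (0.228% each), and these held all of the 11. Leaving out the libraries of number 1, 2, 3 or 4 gave 19, 29, 21 and 19 calls. Fitted on the 8 compared libraries alone, the block gave 14 calls, 13 of them among the 58: Pou2af1, Pmaip1, Klrc2, 2010007H06Rik and all of the 11 except Ehd4 and Gm33707. At an unadjusted p under 0.05 stood 1915 genes (15.1%). Of the 58, 44 had groups that did not overlap, beside 6.20% of all tested genes. The fit with the block favours genes that differ alike in every pair, and 57 of the 58 did so in all 4, beside 21.3% of all tested genes. The exception was Smtnl2, which stood at under 1 CPM on average in both groups. Most changes were small: 44 of the 58 were below 1 on the log2 scale in size. The genes that follow passed with the block and not without it, unless named above.

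**Figure D2:**
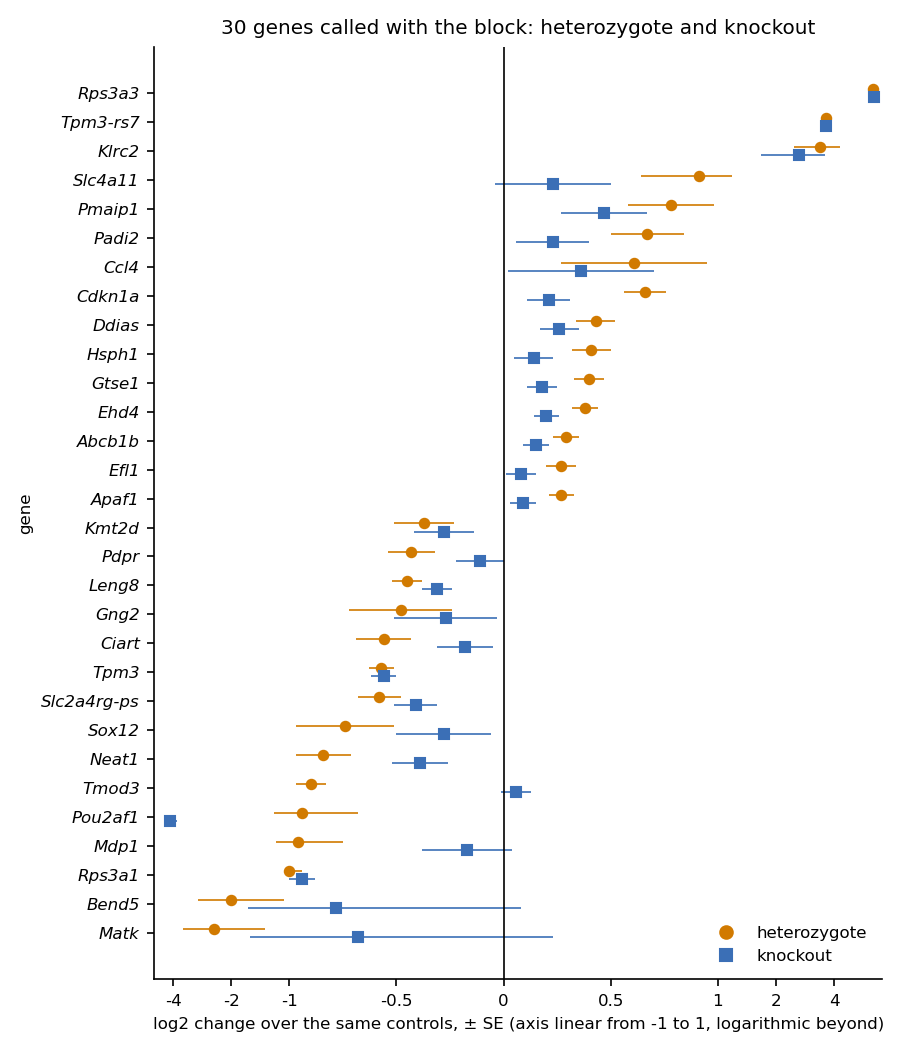
Log2 change over the same 4 control libraries, with SE, in heterozygotes (circles) and knockouts (squares), from the fit without the block. The 30 genes were called with the block and are the 15 of lowest p in each direction. Genes under 1 CPM in both group means, receptor segments and provisional names such as Gm38326 were left out first. The axis is linear between -1 and 1 and logarithmic beyond. Pou2af1 lies at -0.94 in heterozygotes and -4.13 in knockouts, and Tmod3 at -0.90 and 0.06.

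Pmaip1, Gtse1, Apaf1, Ddias and Mdm2 were among the genes that rose with the block. Pmaip1, which encodes the BH3-only protein NOXA, stood at 13.7, 13.5, 19.3 and 20.7 CPM in control libraries 1 to 4 and at 24.5, 24.1, 34.3 and 33.4 CPM in heterozygous libraries 1 to 4. Libraries 3 and 4 were higher in both genotypes, and the pair ratios lay between 1.61 and 1.79 (log2 change 0.80 with the block, edgeR quasi-likelihood adjusted p = 0.000626). Gtse1, a regulator of p53 in G2, rose from 64.3 ± 3.88 to 84.7 ± 4.46 CPM (adjusted p = 0.0160 with the block in edgeR's quasi-likelihood test), and Apaf1, the scaffold of the apoptosome, from 114 ± 3.15 to 138 ± 5.59 CPM (adjusted p = 0.0333; SD, n = 4 each). Ddias, an inhibitor of apoptosis after DNA damage, rose from 73.3 ± 6.89 to 98.5 ± 6.60 CPM, and Mdm2, the ubiquitin ligase of p53, from 156 ± 13.6 to 190 ± 2.88 CPM (SD, n = 4 per group; edgeR quasi-likelihood adjusted p = 0.0160 and 0.0455 with the block). Cdkn1b, which encodes p27, another inhibitor of cyclin-dependent kinases, fell from 130 ± 5.44 to 107 ± 6.4 CPM (SD, n = 4 per group; edgeR quasi-likelihood adjusted p = 0.0313 with the block).

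Of 23 tested p53 target genes, 1 rose without the block (Cdkn1a) and 5 rose with it (Cdkn1a, Pmaip1, Gtse1, Btg2 and Mdm2), and none fell. Of all tested genes, 0.055% rose without the block and 0.228% with it. The p53 list, like the other lists here, was chosen with earlier results of these data known. Its counts beside those of all tested genes are therefore not separate evidence. The calls were not equally firm: Cdkn1a passed in 25, Pmaip1 in 13, Gtse1 in 7 and Mdm2 in 4 of 33 alternatives. With the block on the 8 compared libraries alone, only Cdkn1a and Pmaip1 of the 5 passed. The list median was 0.19 on the log2 scale and 19 of 23 members lay above controls, beside a median of -0.019 and 5683 of 12719 for all tested genes. Of the members that were not called, Ccng1, encoding cyclin G1, stood at 507 CPM in controls and 634 CPM in heterozygotes. Polk, a polymerase that copies past DNA damage, stood at 91.2 and 119 CPM, and the death receptor gene Tnfrsf10b at 30.4 and 38.7 CPM, in controls and heterozygotes. These 3 were higher in heterozygotes in 4 of 4 pairs, with adjusted p of 0.126, 0.0837 and 0.0995 in edgeR's quasi-likelihood test with the block. Bbc3, which encodes PUMA, stood at 21.5 and 21.4 CPM, and Trp53 itself stood at 157 and 149 CPM. Sesn1 lay lower at 36.6 and 29.9 CPM (not called).

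**Figure D3:**
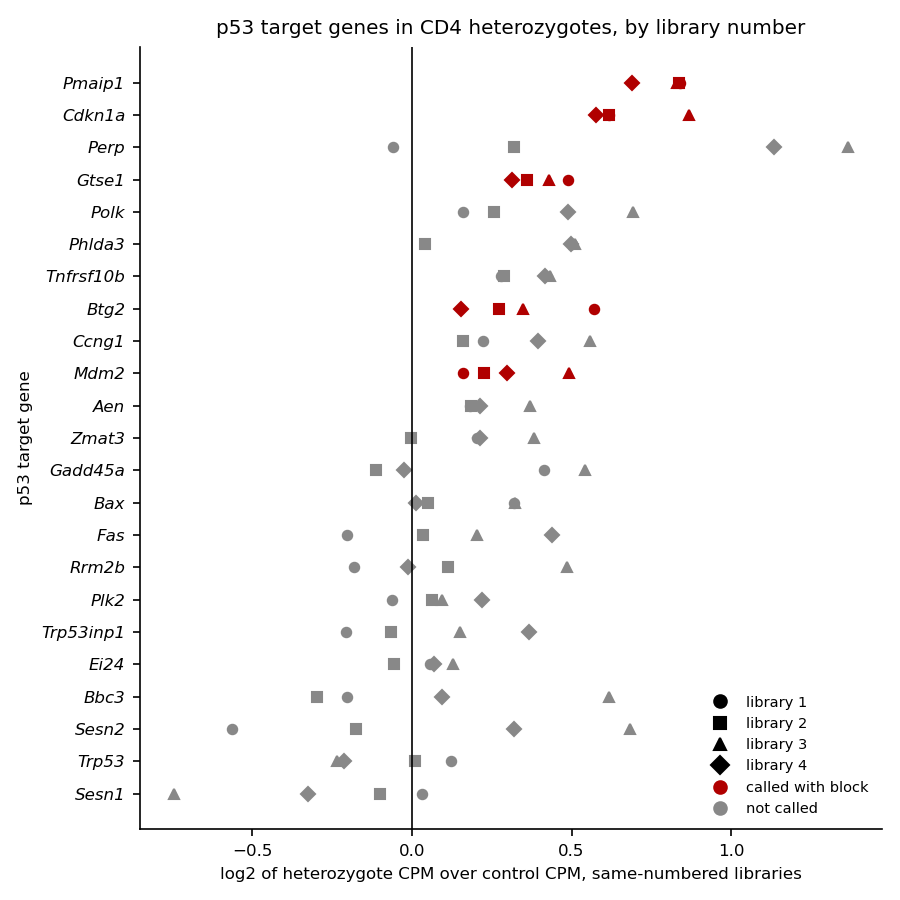
Log2 ratio of heterozygote to control CPM in each same-numbered pair of libraries for the 23 tested p53 target genes, ordered by their fitted change; shapes give the library number and the 5 genes called with the block are in red. All 4 pairs of Pmaip1, Cdkn1a, Gtse1, Btg2 and Mdm2 lie above 0. The list was chosen with earlier results of these data known.

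Of the octamer partners, Pou2f2 fell with the block, from 143, 145, 157 and 160 CPM in control libraries 1 to 4 to 115, 106, 130 and 135 CPM in heterozygous libraries 1 to 4. The groups did not overlap (log2 change -0.32 with an SE of 0.06, edgeR quasi-likelihood adjusted p = 0.0390 with the block and 0.488 without). Pou2f1 stood at 81.5 and 70.2 CPM in controls and heterozygotes and was not called (edgeR quasi-likelihood adjusted p = 0.0877 with the block). A list of POU2AF1 partners and genes reported as its T cell targets had 12 tested members, among them Pou2af1, the targeted gene itself. Apart from Pou2af1 only Pou2f2 fell with the block, and none rose, beside 0.228% of all tested genes in each direction. The list median was 0.08, beside -0.019 for all tested genes (log2). Pou2f2 passed in 4 of 33 alternatives, and it did not pass with the block when any library number was left out. Il2 stood at 139, 166, 88.1 and 132 CPM in controls and 128, 140, 200 and 237 CPM in heterozygotes. It was lower in heterozygotes in pairs 1 and 2 and higher in pairs 3 and 4, and it was not called. Bcl6, the master factor of follicular helper cells, stood at 9.31 and 10.9 CPM, Tbx21, which encodes T-bet, at 75.3 and 92.3 CPM, and the inhibitory receptor gene Btla at 574 and 488 CPM, in controls and heterozygotes (none called).

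The octamer ATGCAAAT, on either strand, was looked for in RefSeq promoter windows of GRCm38.p6, which run from 250 bases before to 50 after the start of a gene. It was in at least 1 window of 532 of 27025 genes (1.97%), in 0 of 20 genes called higher with the block and in 1 of 23 called lower for which the table has a window. That gene was Sox12, a SoxC transcription factor gene that stood at 6.23, 7.86, 10.5 and 8.53 CPM in control libraries 1 to 4 and at 3.46, 3.95, 6.62 and 5.89 CPM in heterozygous libraries 1 to 4. It was lower in each pair although the groups overlap (log2 change -0.75, edgeR quasi-likelihood adjusted p = 0.0209 with the block). The 250 bases before its start (chr2:152398047-152398296, minus strand) are shown 5′ to 3′ with the octamer in capitals.
Sox12: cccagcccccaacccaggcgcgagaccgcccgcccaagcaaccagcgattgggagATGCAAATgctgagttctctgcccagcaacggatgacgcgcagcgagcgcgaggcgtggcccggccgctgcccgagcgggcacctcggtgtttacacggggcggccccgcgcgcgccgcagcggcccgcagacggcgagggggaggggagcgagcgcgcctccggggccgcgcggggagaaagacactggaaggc

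The match begins 195 bases before the start, and it describes these letters only. No motif search was made outside the windows.

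Hsph1, Abcb1b, Padi2, Efl1 and Slc4a11 also rose with the block. Hsph1, a co-chaperone of HSP70, stood at 336, 327, 357 and 393 CPM in control libraries 1 to 4 and at 486, 444, 457 and 487 CPM in heterozygous libraries 1 to 4 (log2 change 0.41 with an SE of 0.06, edgeR quasi-likelihood adjusted p = 0.0111 with the block). All heterozygous libraries lay above all controls. Abcb1b, a multidrug exporter, rose from 127 ± 8.21 to 155 ± 3.60 CPM, Padi2, a deiminase of arginine in proteins, from 7.68 ± 1.43 to 12.2 ± 1.11 CPM, and Efl1, a GTPase of ribosome assembly, from 77.6 ± 5.66 to 93.9 ± 5.98 CPM (SD, n = 4 per group; edgeR quasi-likelihood adjusted p = 0.0252, 0.0333 and 0.0333 with the block). Slc4a11, a membrane transporter, rose from 5.81 ± 2.34 to 10.9 ± 1.45 CPM (SD, n = 4 per group; edgeR quasi-likelihood adjusted p = 0.0425 with the block). Of 11 tested heat shock and chaperone genes Hsph1 rose with the block and none fell, beside 0.228% of all tested genes in each direction. The list median was 0.15, beside -0.019 for all tested genes (log2). Hspa1b, an inducible HSP70, stood at 1.22, 1.35, 0.717 and 0.998 CPM in controls and at 1.94, 3.02, 2.28 and 3.24 CPM in heterozygotes and was not called (edgeR quasi-likelihood adjusted p = 0.0740 with the block).

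Leng8, Gng2, Ciart, Mdp1, Pdpr and Kmt2d were among the genes that fell with the block. Leng8, a nuclear protein gene, stood at 81.3, 82.6, 84.9 and 71.3 CPM in control libraries 1 to 4 and at 61.4, 58.0, 53.9 and 61.1 CPM in heterozygous libraries 1 to 4. The groups did not overlap (log2 change -0.45, edgeR quasi-likelihood adjusted p = 0.0119 with the block and 0.0521 without). Gng2, a G protein subunit gene, stood at 56.5, 56.3, 91.4 and 86.0 CPM in controls and at 41.2, 44.6, 57.4 and 65.0 CPM in heterozygotes. It was lower in each pair, while the control libraries 1 and 2 lay below the heterozygous libraries 3 and 4 (log2 change -0.47, edgeR quasi-likelihood adjusted p = 0.00855 with the block). Ciart, a repressor of the circadian clock, fell from 20.2 ± 2.69 to 13.7 ± 1.92 CPM, Mdp1, a phosphatase gene, from 9.86 ± 2.46 to 5.04 ± 0.947 CPM, and Pdpr, a regulator of pyruvate dehydrogenase, from 32.8 ± 2.80 to 24.3 ± 2.83 CPM (SD, n = 4 per group; edgeR quasi-likelihood adjusted p = 0.00914, 0.0111 and 0.0254 with the block). Kmt2d, a histone H3 lysine 4 methyltransferase of enhancers, fell from 206 ± 23.5 to 159 ± 24.1 CPM, and Slc2a4rg-ps from 12.5 ± 0.379 to 8.38 ± 0.975 CPM (SD, n = 4 per group; edgeR quasi-likelihood adjusted p = 0.0252 and 0.0243 with the block).

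Matk, a kinase that inhibits Src family kinases, and Bend5 were low and varied widely. Matk stood at 0.203, 0.142, 2.65 and 1.72 CPM in control libraries 1 to 4 and at 0.0607, 0.0670, 0.515 and 0.249 CPM in heterozygous libraries 1 to 4. Bend5 stood at 0.474, 0.567, 4.23 and 2.58 CPM in controls and at 0.0607, 0.268, 1.10 and 0.581 CPM in heterozygotes. Both were lower in each pair and much higher in control libraries 3 and 4 than in 1 and 2 (log2 changes -2.31 and -1.93, edgeR quasi-likelihood adjusted p = 0.0111 for each with the block and 0.573 and 0.590 without).

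Called genes lay within 1 Mb of each other at 4 places. Of 7 other tested genes within 1 Mb of Gm38326, Gm33707 was called, and with the block also Mbnl1, a splicing factor gene that rose from 908 ± 73.5 to 1148 ± 21.1 CPM (SD, n = 4 per group; edgeR quasi-likelihood adjusted p = 0.0470 with the block). Near Gm8778 on chromosome 6, 1 of 22 other tested genes was called with the block, the NK receptor gene Klrc2. Near Tpm3, 1 of 55 was called with the block, Snapin, which fell from 22.4 ± 5.07 to 15.5 ± 2.26 CPM (SD, n = 4 per group; edgeR quasi-likelihood adjusted p = 0.0425). Tpm3 and Gm38326 are both on chromosome 3, and further calls with the block lay on it outside these windows. They were Gm36981 (from 84058968), Rps3a1 (from 86137940), Ciart (from 95878503) and Gm35507 (from 106827307). How many of all tested genes lie on that stretch was not counted. Near Pou2af1, 1 of 22 other tested genes was called with the block, 2010007H06Rik (chromosome 9, 51278513 to 51284210), an antisense transcript whose exons overlap those of Colca2 on the opposite strand. It rose from 0.980 ± 0.471 to 4.41 ± 1.3 CPM (SD, n = 4 per group; log2 change 2.23, edgeR quasi-likelihood adjusted p = 0.000626 with the block). The strand setting of the counting is unknown here, and reads of 2010007H06Rik and Colca2 cannot be told apart.

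Type 1 helper and cytotoxic effector genes lay above controls but none passed. All 18 tested members had a fitted change of 0 or above, with a median of 0.36 on the log2 scale. Of all tested genes 5683 of 12719 lay above controls. With or without the block 0 members were called by edgeR's quasi-likelihood test (2 had an unadjusted p under 0.05 without it, beside 8.59% of all tested genes). Ifng, the cytokine of type 1 helpers, stood at 1.08, 1.27, 3.51 and 1.95 CPM in control libraries 1 to 4 and at 5.46, 7.31, 5.44 and 4.81 CPM in heterozygous libraries 1 to 4. Prf1, which encodes perforin, stood at 1.90, 1.20, 0.645 and 0.907 CPM in controls and at 2.12, 3.02, 4.41 and 3.24 CPM in heterozygotes. Neither gene overlapped between the groups, and both missed the threshold (edgeR quasi-likelihood adjusted p = 0.135 and 0.151 with the block). Gzmb, a granzyme gene, stood at 45.7 and 65.7 CPM and Il12rb2, a chain of the IL-12 receptor, at 168 and 251 CPM, in controls and heterozygotes (not called).

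Of 8 tested chemokine genes Ccl4 rose with the block and none fell, beside 0.228% of all tested genes in each direction. The list median was 0.68, beside -0.019 for all tested genes (log2). Ccl4 stood at 11.7, 15.2, 29.5 and 28.5 CPM in control libraries 1 to 4 and at 24.9, 23.3, 41.4 and 41.0 CPM in heterozygous libraries 1 to 4. The groups overlap, but each pair moved up (log2 change 0.67 with an SE of 0.10, edgeR quasi-likelihood adjusted p = 0.0102 with the block and 0.666 without). Cxcl10, an interferon-induced ligand of CXCR3, stood at 7.32, 6.02, 2.37 and 4.22 CPM in controls and at 13.1, 18.2, 19.1 and 11.9 CPM in heterozygotes. Its groups did not overlap, and it missed the threshold (edgeR quasi-likelihood adjusted p = 0.156 with the block). Of 27 tested genes of the type I interferon response 26 lay above controls, beside 5683 of 12719 tested genes, with a median of 0.50 beside -0.019, yet 0 were called with or without the block by edgeR's quasi-likelihood test (13 had an unadjusted p under 0.05 without it, beside 8.59% of all tested genes). Usp18, which trims ISG15 from proteins, stood at 103, 74.6, 62.3 and 122 CPM in controls and at 110, 193, 206 and 167 CPM in heterozygotes. Rsad2, which encodes viperin, stood at 14.2 and 38.2 CPM and Mx2 at 36.3 and 84.2 CPM, in controls and heterozygotes (not called). Both overlapped between the groups: Rsad2 ran from 8.89 to 21.7 CPM in controls and 12.9 to 55.2 CPM in heterozygotes (higher in 3 of 4 pairs). Mx2 ran from 24.4 to 57.4 and from 37.3 to 124 CPM (higher in 4 of 4 pairs).

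**Figure D4:**
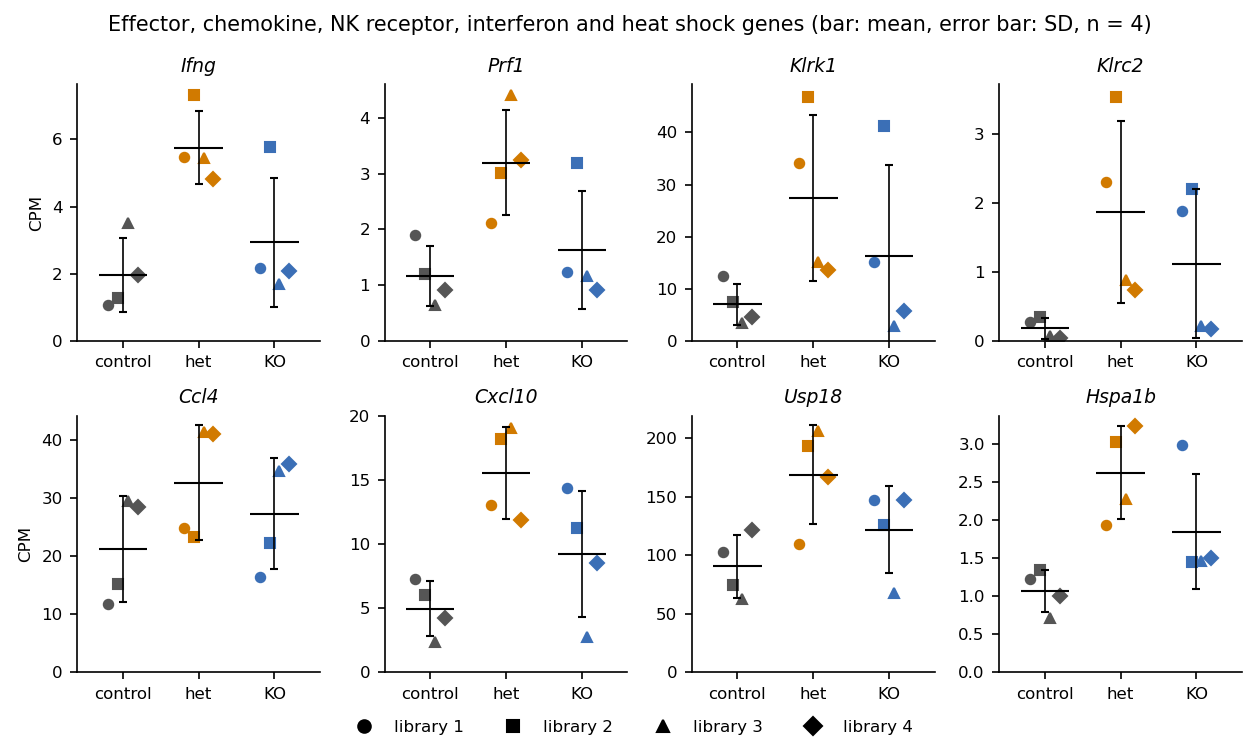
CPM of effector, chemokine, NK receptor, interferon and heat shock genes in control, heterozygous (het) and knockout (KO) CD4 libraries; points are libraries, shapes their numbers, bars means and error bars SD (n = 4). Klrk1 and Klrc2 are highest in heterozygous library 2 (46.8 and 3.55 CPM), and Ccl4 is higher in libraries 3 and 4 of each genotype.

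Of the receptor genes of the NK complex on chromosome 6, Klrc2 rose with the block. It had 4, 5, 1 and 1 counts in control libraries 1 to 4 and 38, 53, 12 and 9 counts in heterozygous libraries 1 to 4, a ratio of 11.6 with an exact 95% interval of 6.23 to 23.9 for counting error (edgeR quasi-likelihood adjusted p = 0.00106 with the block and 0.336 without). Libraries 1 and 2 were higher than 3 and 4 in both genotypes. Klrk1, which encodes the activating receptor NKG2D, stood at 12.4, 7.44, 3.51 and 4.63 CPM in controls and at 34.1, 46.8, 15.2 and 13.7 CPM in heterozygotes. The groups did not overlap, and Klrk1 was not called over the 12 libraries (log2 change 1.98 with an SE of 0.73, edgeR quasi-likelihood adjusted p = 0.514, and 0.138 with the block, but 0.0453 with the block on the 8 compared libraries alone). The 8 NK cell markers together summed to 24 to 31.8 CPM in controls and 47.9 to 70.9 CPM in heterozygotes (2-sided exact permutation p = 0.0286, the smallest that 4 against 4 allows; adjusted p = 0.243 over 17 measures; higher in 4 of 4 pairs). Klrk1 and Eomes, a T-box factor gene also active in T cells (20.3 and 26.4 CPM), made up nearly all of that sum. Of the other 6, Ncr1 (0.144 and 0.0879 CPM), Klrb1c (0.139 and 0.0319 CPM) and Tyrobp (0.0855 and 0.0511 CPM) averaged lower in heterozygotes than in controls. Klre1 (0.134 and 0.448 CPM), Klra4 (0.127 and 0.229 CPM) and Klra8 (0.0452 and 0.0711 CPM) averaged higher in heterozygotes. These averages lay within or below the range of the floor of detection except that of Klre1 in heterozygotes, and the part of NK cells in the Klrc2 and Klrk1 values was not tested.

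Markers of other cell types follow, and none of their sums passed after adjustment. The 12 B cell markers summed to 160 to 220 CPM in controls and 146 to 163 CPM in heterozygotes (lower in 4 of 4 pairs; 2-sided exact permutation p = 0.0571, adjusted p = 0.243 over 17 measures), of which Ighm made up 155 and 135 CPM on average. Without Ighm the other 11 summed to 14.4 to 53.4 CPM in controls, highest in control library 3, and to 13.4 to 23.7 CPM in heterozygotes (lower in 3 of 4 pairs). All 9 tested B cell markers lay below controls, beside 7036 of 12719 tested genes, with a median of -0.60 beside -0.019 for all tested genes (log2), and none was called. Pou2af1, Pou2f2, and these markers were all lower in heterozygotes, and the part of B cells in the Pou2af1 difference was not tested. The CD8 lineage markers summed to 74.5 to 96.5 CPM in controls and 80.7 to 112 CPM in heterozygotes (2-sided exact permutation p = 0.400, adjusted p = 0.810). The 8 macrophage and monocyte markers summed to 1.29 to 2.17 CPM in controls and 2.28 to 2.57 CPM in heterozygotes (2-sided exact permutation p = 0.0286, adjusted p = 0.243), with Lyz2 at 0 in all 8 libraries. Their part in the chemokine and interferon values was not tested.

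The remaining lists held few or no calls. Of all tested genes, 0.0865% were called without the block and 0.456% with it. Of 11 tested paraspeckle and nuclear long noncoding RNA genes Neat1 fell, and the paraspeckle protein genes Nono (326 and 336 CPM), Sfpq (641 and 651 CPM) and Pspc1 (72.2 and 76.4 CPM) were not called. Of 8 tested EHD family and recycling genes Ehd4 rose, and Ehd1 stood at 82.2 and 82.4 CPM in controls and heterozygotes. In the lists of immediate early (23 tested), cytokine (13), hypoxia and glycolysis (23), unfolded protein response (19), cholesterol synthesis (23), cell cycle (30), follicular helper (9), naive and memory (12), regulatory T cell (12), Th2 and Th17 (9) and activation receptor genes (15), 0 members were called with or without the block by edgeR's quasi-likelihood test. Their members with an unadjusted p under 0.05 in that test without the block numbered 0 to 6 for each list, beside 8.59% of all tested genes. The list with 6 was that of the 23 immediate early genes, and all 6 were higher in heterozygotes.

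**Figure D5:**
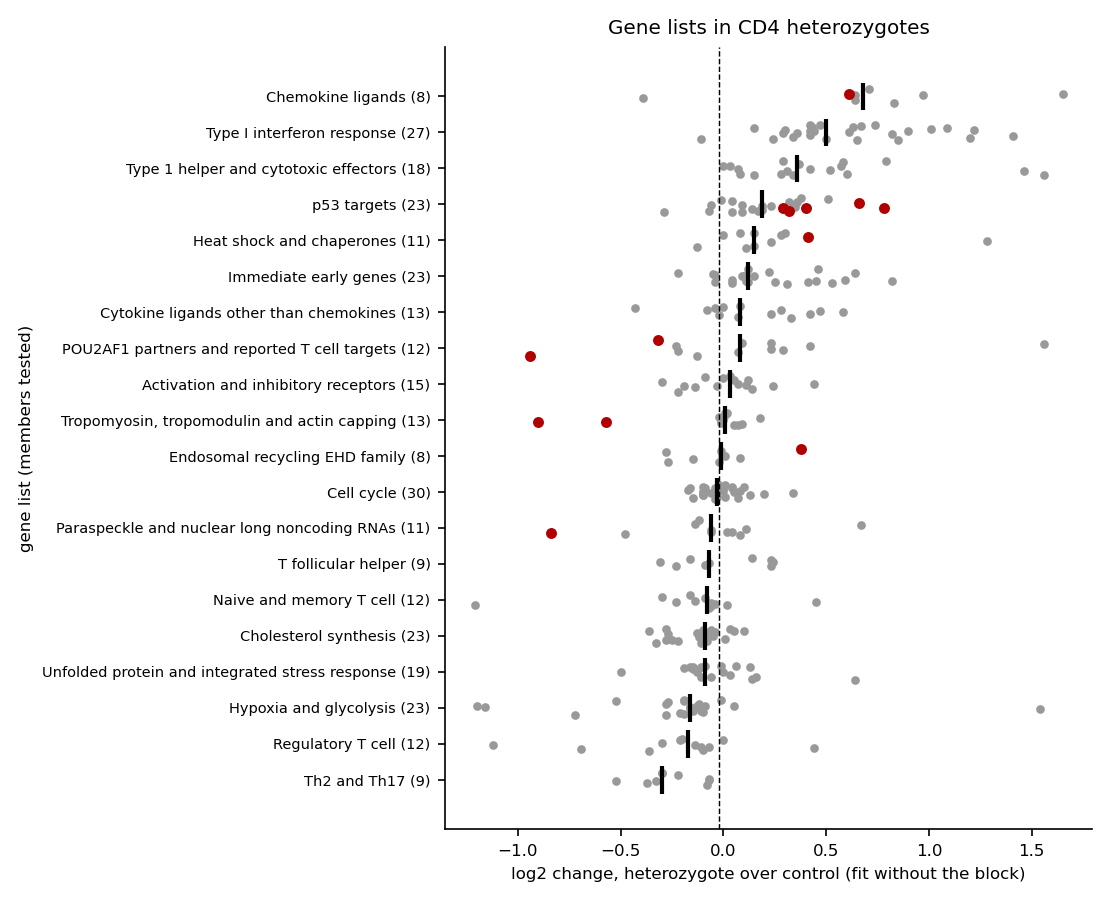
Log2 change of each tested member of the 20 gene lists in heterozygotes over controls, from the fit without the block; red points passed with the block, black ticks are list medians and the dashed line is the median of all tested genes. Medians run from -0.30 for Th2 and Th17 genes to 0.68 for chemokine genes. The lists were chosen with earlier results of these data known.

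Immediate early genes lay above controls in 19 of 23 members (median 0.12), beside 5683 of 12719 tested genes. Among them were Klf6, a Krüppel-like factor gene, at 408 and 557 CPM and Fosl1, which encodes FRA1, at 6.77 and 9.36 CPM in controls and heterozygotes (not called). Hypoxia and glycolysis genes lay below controls in 21 of 23 members (median -0.16), beside 7036 of 12719 tested genes. The pairs did not share this direction for many members. Egln3 ran from 5.31 to 222 CPM in controls and 21.8 to 60.9 CPM in heterozygotes, and Pfkl from 86.6 to 235 and 122 to 165 CPM. Both were higher in heterozygotes in 2 of 4 pairs, while Vegfa was higher in 0 of 4. Slc2a3, a glucose transporter gene, stood at 27.2, 32.2, 262 and 155 CPM in control libraries 1 to 4 and at 36.6, 31.6, 64.0 and 76.8 CPM in heterozygous libraries 1 to 4. Control libraries 3 and 4 were far above the rest, and in pairs 1 and 2 the fitted change had the opposite sign (0.21 against -1.20 over all libraries, log2). Adm, which encodes adrenomedullin, went against its list at 0.745, 0.283, 0.502 and 0.544 CPM in controls and 1.09, 1.74, 1.98 and 1.33 CPM in heterozygotes (edgeR quasi-likelihood adjusted p = 0.0794 with the block). The regulatory T cell gene Foxp3 stood at 2.56 and 2.01 CPM, and Lef1, a factor of naive T cells, at 136 and 111 CPM, in controls and heterozygotes (not called).

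Knockouts and heterozygotes both carry Cre, and the test between them called 2 of 12719 genes (0.0157%) with or without the block: Pou2af1, lower in knockouts, and Tmod3, higher in knockouts. With no filter on low counts 1 gene was called, higher in knockouts. Without the block 461 genes (3.62%) had an unadjusted p under 0.05 in edgeR's quasi-likelihood test. The values of single genes follow side by side, since heterozygotes and knockouts are set against the same controls. Cdkn1a stood at 104 ± 12.6, 164 ± 10.7 and 120 ± 15.1 CPM in controls, heterozygotes and knockouts, Neat1 at 58.1 ± 10.2, 32.5 ± 2.08 and 44.2 ± 7.21 CPM, and Ehd4 at 52.8 ± 1.84, 68.6 ± 2.7 and 60.7 ± 4.04 CPM (SD, n = 4 each). Without the block the differences between knockouts and heterozygotes were -0.45, 0.45 and -0.18 on the log2 scale. None was called (edgeR quasi-likelihood unadjusted p = 0.000695, 0.00524 and 0.0122, adjusted p = 1.0 for each). With the block they were -0.45, 0.43 and -0.18, and none was called either (edgeR quasi-likelihood unadjusted p = 2.5e-05, 0.000657 and 0.00681, adjusted p = 0.106, 0.382 and 0.506). Pmaip1 stood at 16.8 ± 3.72, 29.1 ± 5.55 and 23.4 ± 5.76 CPM in the same order (SD, n = 4 each). These genes were picked by their heterozygote values, which the test against knockouts reuses. Knockout values nearer to controls were therefore favoured by the choice.

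In CD8 T cells, which have controls of their own, 54 of the 58 genes were tested. The CD8 fit had no block, while the 58 were called in CD4 with it. Without the block 11 genes were called in CD4. In the CD8 fit 7 of the 54 were called in heterozygotes: Rps3a3, Tpm3-rs7, Rps3a1, Tpm3, Tmod3, 2010007H06Rik and Gm8778. The difference between the heterozygote effects of the 2 cell types was called for 1 of 13288 genes (0.00753%), Gm38326 (log2 5.92, SE 0.60, edgeR quasi-likelihood adjusted p = 1.58e-05), and 527 had an unadjusted p under 0.05 (3.97%). Gm38326 stood at 0.212 ± 0.0407 CPM in CD8 controls and 0.125 ± 0.0646 CPM in CD8 heterozygotes (SD, n = 4 each). Cdkn1a stood at 80.2 ± 8.70 and 85.7 ± 12.7 CPM, Neat1 at 47.1 ± 8.13 and 44.1 ± 10.2 CPM, Ehd4 at 54.5 ± 2.48 and 54.4 ± 6.62 CPM and Pmaip1 at 43.1 ± 1.72 and 44.3 ± 3.41 CPM in CD8 controls and heterozygotes (SD, n = 4 each). For these 4 genes the CD4 effect exceeded the CD8 effect in size, with differences of 0.57, -0.74, 0.39 and 0.75 on the log2 scale in that order, but none of the differences passed (edgeR quasi-likelihood unadjusted p = 0.00160, 0.0158, 0.00130 and 0.00267, adjusted p = 1.0 for each). The 4 genes were picked by their calls in CD4, and the test reuses those CD4 values. A larger effect in CD4 was therefore favoured by the choice and is not separate evidence.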

How the data were processed

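The authors deposited whole-number read counts per gene for 24 libraries. Per the submitters' processing notes, Trimmomatic 0.35, STAR 2.7.1a, DESeq2 1.26.0 and GRCm38 were used, while no annotation release or strand setting is given in the sources used here. The table held 55401 genes, of which 24645 had 0 counts in all libraries. Summary lines that name no gene were left out. In the 8 libraries compared, multimapping reads were 17.7 to 18.4% and reads outside genes 8.29 to 10.0%. The authors' normalized table holds the same counts over 1 factor per library and was not used.

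Genes passing filterByExpr in edgeR 4.0.16 (minimum count 10, minimum total 15; R 4.3.3, limma 3.58.1) were TMM-scaled and fitted over the 12 CD4 libraries by group with robust quasi-likelihood estimation, 9 residual degrees of freedom, and Benjamini-Hochberg adjustment over 12719 genes. A gene was called at an adjusted p under 0.05. SE was taken as the absolute log2 change divided by the root of the F statistic. Contrasts between CD4 and CD8 used all 24 libraries (13288 genes). The scripts were tested on simulated data. Summed markers and library measures were tested by exact permutation over 70 assignments.

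Deviations from the group means correlated within every same-numbered pair of CD4 libraries (r from 0.127 to 0.624, heterozygote with control 0.127 to 0.379), so the number was also fitted as a block (6 residual degrees of freedom). The best match was the same number in 6 of 12 comparisons and the other number of its set, 1 with 2 or 3 with 4, in the other 6. The same number thus matched no more often than the other number of its set. Whether same-numbered libraries are true pairs is therefore not known. No 2 libraries of a group agreed within sampling noise. Alternatives were DESeq2 1.42.0, limma-voom, other scalings and filters, other library sets, covariates and left-out libraries.

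Members and lists were chosen with earlier results of these data known. Genes were named by rule: Pou2af1, all genes called without the block, up to 15 each way called with it (at least 1 CPM, no receptor segments or provisional names), 3 of lowest p per list, genes called between knockouts and heterozygotes or between cell types, and called genes within 1 Mb of Pou2af1. Other genes, such as Mbnl1, Snapin, Rps3a2, Cdkn1b, Klrk1 and Ccng1, were named after their values were seen. A gene that the rule names is not reported here.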

Additional observations from a re-analysis of the deposited data

Results flagged for a closer look

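Of 154 groups of 4 libraries checked among the named genes, 4 held a library set apart from the other 3 by a gap above Dixon's 95% critical value for 4 samples, and chance gives about 1 in 20. Ehd4 was lowest in heterozygous CD4 library 3 at 64.5 CPM, with the others at 69.6 to 70.4 CPM. Padi2 was highest in heterozygous CD4 library 1 at 13.8 CPM, with the others at 11.4 to 11.8 CPM. Kcnq1ot1, an imprinted long noncoding RNA, was highest in heterozygous CD4 library 1 at 40.6 CPM, with the others at 28.7 to 29.8 CPM. Ier5, an immediate early gene, was highest in control CD4 library 2 at 71.0 CPM, with the others at 59.6 to 61.3 CPM. The heterozygote effect differed between cell types for Gm38326, where CD4 exceeded CD8 by 5.92 on the log2 scale (SE 0.60, edgeR quasi-likelihood adjusted p = 1.58e-05).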

How the results depend on the processing

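The number of genes called between CD4 heterozygotes and controls was 11, and it moved with the design. It was 58 with the library number as a block, 45 with the block and without robust estimation (chosen after seeing the data), 18 with all 24 libraries, 80 in DESeq2, 82 with libraries 1 and 2 against 3 and 4 as a covariate and 373 with the block and Y-linked transcripts. It was 365 with libraries 1 and 2 alone, where all heterozygotes are female and all controls male, and 103 with libraries 3 and 4 alone. With the block on the 8 compared libraries it was 14, of which 13 were among the 58. The cause was not tested. Leaving out 1 library gave 7 to 12, leaving out 1 number with the block 19 to 29 (21 without number 3), and the other alternatives 10 to 13. All 58 genes called with the block also passed with Y-linked transcripts added. Pou2af1 passed at -0.92 (log2) with the block, with or without robust estimation, with the 8 libraries and the block, and with the covariate for library sets. It also passed at -0.93 with the block and Y-linked transcripts, at -0.81 and -1.01 in libraries 1 and 2 or 3 and 4 alone, and at -0.92 to -0.99 with the block and number 1, 2 or 3 left out (-0.85 without number 4, where it did not pass). Between knockouts and heterozygotes the count was 2, and 1 with no filter on low counts. Among genes that were not called, the sign turned in libraries 1 and 2 alone for Il2 (-0.19), Ltb (0.10), Slc2a3 (0.21), Mvd (0.14), Tm7sf2 (0.09), Bcl6 (-0.04) and Il1rl1 (0.16). It turned in libraries 3 and 4 alone for Rora (0.18) and Ctla4 (0.09), and for Pacsin3 without control library 3 (0.19, with -0.65 to 0.19 over left-out libraries) or without number 3 under the block (0.30). Depth limited genes such as Gm33707 and Gm8778, where controls held few or no counts above the floor of 3.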

Other observations

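Several further genes passed with the library number as a block and not without it. Zmiz1, a coregulator of transcription, fell from 134 ± 24 to 101 ± 8.74 CPM and Jarid2, a cofactor of Polycomb repressive complex PRC2, from 105 ± 5.29 to 87.8 ± 2.37 CPM (SD, n = 4 per group; edgeR quasi-likelihood adjusted p = 0.0333 and 0.0489). Fyb, which encodes the T cell adaptor ADAP, fell from 185 ± 44.7 to 141 ± 21.9 CPM, and Add3, an adducin of the membrane skeleton, from 112 ± 4.33 to 92.6 ± 2.05 CPM (SD, n = 4 per group; edgeR quasi-likelihood adjusted p = 0.0333 and 0.0376). Ccni, which encodes cyclin I, fell from 217 ± 7.99 to 179 ± 5.75 CPM, and Fancc, of the Fanconi anaemia DNA repair pathway, from 14.7 ± 3.59 to 10.3 ± 1.81 CPM (SD, n = 4 per group; edgeR quasi-likelihood adjusted p = 0.0406 and 0.0489). The groups of Zmiz1, Fyb and Fancc overlap, while those of Jarid2, Add3 and Ccni do not, and all 6 were lower in each pair.

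Of those that rose, the zinc finger gene Zfp719 went from 23.9 ± 2.37 to 30.9 ± 0.143 CPM and Arf2, a small GTPase of vesicle traffic, from 19.1 ± 3.06 to 25.8 ± 2.58 CPM (SD, n = 4 per group; edgeR quasi-likelihood adjusted p = 0.0455 and 0.0445). These genes were named after their values were seen. In CD8 T cells, fitted without the block, the heterozygote change of these 8 genes lay between -0.03 and 0.17 on the log2 scale. None was called there (edgeR quasi-likelihood adjusted p = 1.0 for each). The difference between the cell types, also without the block, was not called for any of them. The genes were picked by their CD4 calls, which favours a smaller change in CD8.

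Summed markers of dendritic cells ran from 5.53 to 9.49 CPM in control and from 8.32 to 13.6 CPM in heterozygous CD4 libraries, with Clec9a and Siglech at 0 in all 8 (2-sided exact permutation p = 0.143, adjusted p = 0.486 over 17 measures). Neutrophil markers summed to at most 0.143 CPM and red cell and platelet markers to at most 1.08 CPM in any of the 8 libraries.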
